A study of Mus musculus with 2 samples.

Results

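The genes of the eukaryotic translation initiation factors (eIFs) were followed in mouse bone-marrow-derived macrophages, phagocytes grown out of marrow over 7 days in a medium that contained supernatant of L929 fibroblasts. Cells of 2 genotypes of the C57BL/6J strain were compared, wild-type (WT) and Oasl1-/-, and both were given 5 µg/ml of poly(I:C), an artificial double-stranded RNA used in place of viral RNA, for 9 h. Total RNA of 3 samples was mixed for each genotype and hybridised to 1 Affymetrix Mouse Gene ST array, so the mixing hides the spread between cultures. With 1 array per genotype, and no array of untreated cells, no difference has a replicate check, no test was possible and no p-value is given. Members were the probe sets whose single gene symbol begins with Eif and a digit, without Eif2ak2 and Eif2s3y, which the rule leaves out. Each symbol was represented by its probe set with the highest mean of both arrays. This gave 55 of the 22049 gene symbols on the array.

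Translation of most mRNAs begins when the cap-binding complex eIF4F (the cap-binding protein eIF4E, the helicase eIF4A and the scaffold eIF4G) prepares the mRNA for the small ribosomal subunit. That subunit carries eIF1, eIF1A, eIF3, eIF5 and the initiator tRNA, which eIF2 delivers with GTP. Kinases that phosphorylate the alpha subunit of eIF2 lower overall initiation under stress, and one of them, PKR (Eif2ak2), is activated by double-stranded RNA. OASL1 is itself known in mice as a protein that holds back translation of Irf7 mRNA, which gives the initiation machinery its interest here, although an array measures transcripts and not translation.

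Values are log2 signals, and differences are the Oasl1-/- value minus that of WT (log2). The floor of an array was the level under which 95% of its negative control probe sets lay, 7.75 in the WT and 7.68 in the Oasl1-/- hybridisation. Of the 55 members, 45 were above the floor, all 45 on both arrays, and 10 were below it on both. Levels of different genes are not compared, because probe sets differ in how strongly they bind.

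The targeted gene Oasl1 had 12.59 in WT and 11.13 in Oasl1-/-, 2.76-fold lower, and which of its probes lie in the deleted stretch is not known here. Of 10 macrophage markers, 9 exceeded the floor (median 0.03), and Cd163 was below it. None of the 6 T cell, 4 B cell and 6 stromal markers was above the floor. Of 8 neutrophil markers 1 was (Ngp, on the Oasl1-/- array), and their summed linear signal was 443 in WT and 672 in Oasl1-/-, with no marker at 0 on this scale, and its part in the differences of the initiation factor genes was not tested. In mixed RNA of whole cultures, fewer cells of a type and less RNA per cell cannot be told apart.

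Most initiation factor genes had nearly the same value in both genotypes, and none reached a 1.5-fold difference, which 0.361% of all genes above the floor did upwards and 0.517% downwards in Oasl1-/-. At 2-fold, again with 0 members, those shares were 0.141% and 0.0784%. Within 1.1-fold in either direction were 30 of the 45 members above the floor. Most genes above the floor were within it too, as 9.8% were at least 1.1-fold higher and 26.8% lower. At least 1.2-fold lower in Oasl1-/- were 4 members, Eif4a2, Eif3j, Eif2c1 and Eif3e, or 8.89% of the 45, against 8.89% of all 6377 genes above the floor. None of the 45 was at least 1.2-fold higher, against 2.65% of all genes. With each difference centred on the median gene, 1 member (Eif3b) was higher, against 4.31% of all genes, and 3 were lower, against 5.74%.

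The differences of the 45 members leaned below 0, as did those of all genes above the floor. A value below 0 was found in 34 of the 45 members, against 63.5% of all genes above the floor. The median difference was -0.05 over the 45 members and -0.04 over all genes, and 25 of the 45 lay below the median of all genes. At the looser limit of 1.1-fold, 14 members were lower, against 26.8% of all genes, and 1 was higher, against 9.8%.

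**Figure D1:**
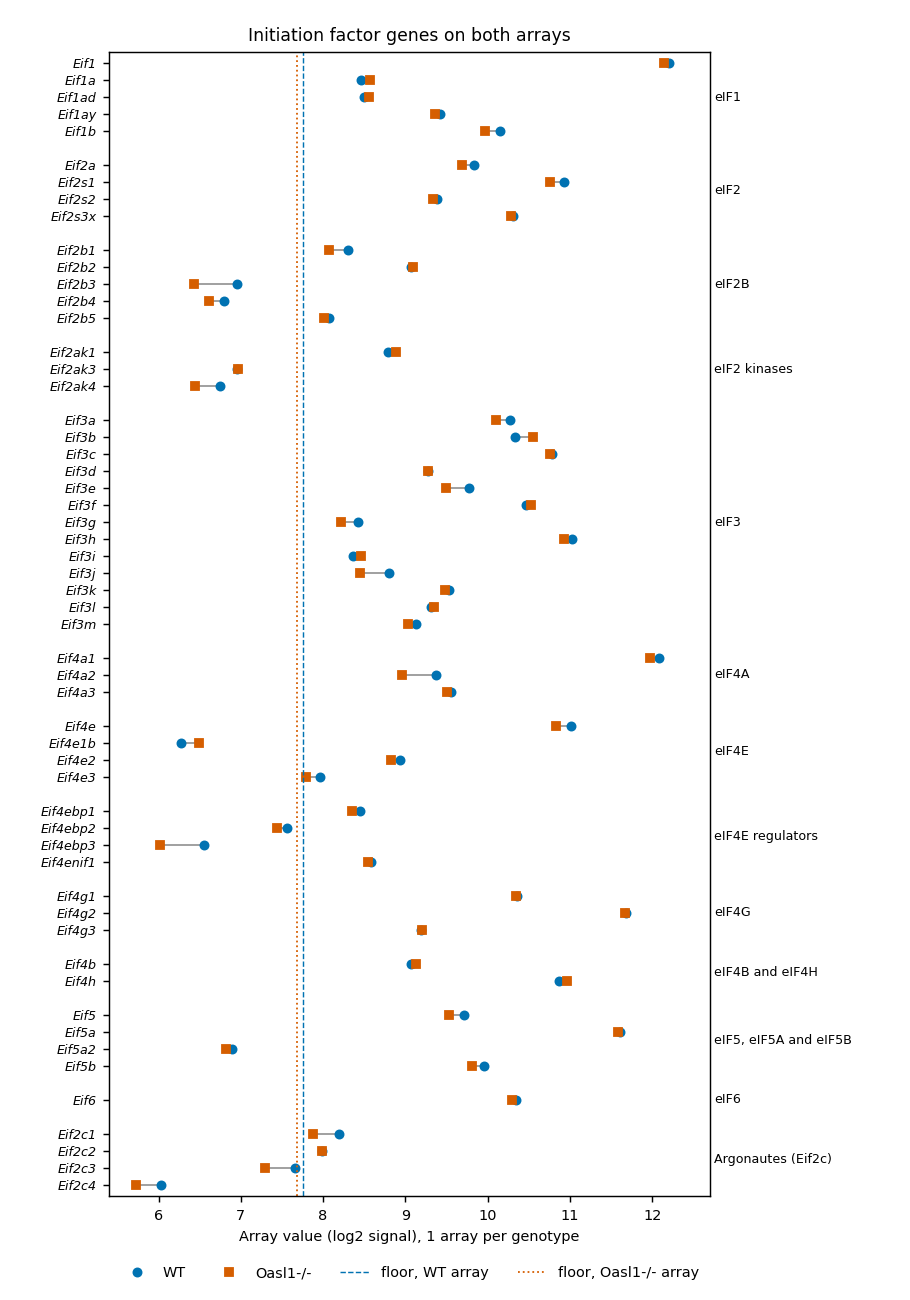
Log2 array value (horizontal axis) of each of the 55 members, one line per gene symbol and grouped by factor, with the WT array as circles, the Oasl1-/- array as squares and each array's floor as a vertical line. The 2 symbols lie close together for most genes, and the widest gaps above the floor are those of Eif4a2 and Eif3j.

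The helicase eIF4A, which unwinds the start of the mRNA, gave the largest difference among members above the floor. Eif4a2 (NM_013506, chr16:23107829-23114020 in the NCBIM37 build) gave 9.37 for WT and 8.96 for Oasl1-/-. The difference was -0.41, or 1.33-fold lower in Oasl1-/-. Of all genes above the floor, 2.05% had a lower difference. It was also the 1 member outside the central 95% of genes of like level, which ran from -0.36 to 0.25 for the 500 genes nearest in mean level. By definition 2.5% of those genes lie below such a range and 2.5% above it. The 1 member of 45 outside it is within that share. Its paralog Eif4a1, which supplies most eIF4A in many cells, had 12.08 in WT and 11.97 in Oasl1-/- (difference -0.12). The third helicase, Eif4a3, belongs to the exon junction complex that marks spliced mRNAs, and had 9.55 and 9.51, a difference of -0.04.

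Eif4a2 and Eif4a1 are both known as host genes of small nucleolar RNAs (snoRNAs), which are cut from introns and guide the modification of ribosomal RNA. The array has 3 snoRNA probe sets inside the Eif4a2 locus, and all 3 had lower values in Oasl1-/-. One, at chr16:23111374-23111502, was above the floor, with 8.64 in WT and 8.39 in Oasl1-/- (difference -0.25). The others were below the floor on both arrays, with 5.48 and 4.98 for the first and 6.65 and 5.97 for the second. The snoRNA probe set inside Eif4a1 was below the floor too, with 7.23 and 7.06. Of the 306 snoRNA probe sets on the array, only 12 exceeded the floor, with a median of -0.23. Over all 306, most of them dim, 65.7% lay below 0 and 26.5% were at least 1.2-fold lower, against 46.7% and 8.16% of all genes taken without a floor. The gene shares use the brightest probe set per symbol and include the genes above the floor, so the snoRNAs and genes are not matched in level.

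The promoters of these helicases and of Eif3j1, the RefSeq gene behind the Eif3j probe set, are shown because these genes had the largest difference, the next largest, and a small one within the same family. Each run is the 250 bases before the annotated start, 5′ to 3′ on the gene's strand, from RefSeq on GRCm38.p6, at chr16:23107218-23107467 (plus strand), chr11:69672424-69672673 (minus strand) and chr2:122028330-122028579 (plus strand). Capitals mark an E-box, the letters CACGTG that MYC family proteins can bind, in Eif4a1, and the letters TTTCNNTT in Eif3j1, which read AANNGAAA on the other strand, the core that interferon regulatory factors can bind.
Eif4a2: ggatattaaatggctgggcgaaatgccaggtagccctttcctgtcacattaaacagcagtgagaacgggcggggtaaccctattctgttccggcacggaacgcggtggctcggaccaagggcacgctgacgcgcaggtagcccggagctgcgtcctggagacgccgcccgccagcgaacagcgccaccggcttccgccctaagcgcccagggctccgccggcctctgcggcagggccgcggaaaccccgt
Eif4a1: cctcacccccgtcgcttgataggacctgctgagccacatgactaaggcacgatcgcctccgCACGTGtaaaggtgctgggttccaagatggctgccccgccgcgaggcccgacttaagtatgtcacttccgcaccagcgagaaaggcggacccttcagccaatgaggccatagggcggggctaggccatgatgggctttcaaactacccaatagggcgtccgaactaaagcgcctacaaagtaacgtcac
Eif3j1: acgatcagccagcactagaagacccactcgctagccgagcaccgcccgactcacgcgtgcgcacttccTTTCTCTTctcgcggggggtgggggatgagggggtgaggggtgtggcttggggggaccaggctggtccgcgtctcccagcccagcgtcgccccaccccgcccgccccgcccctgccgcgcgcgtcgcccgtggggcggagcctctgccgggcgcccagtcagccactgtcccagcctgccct

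The Eif4a2 window, upstream of the gene with the largest difference, held none of the motifs searched. Motifs were searched on both strands of the RefSeq windows from 250 bases before to 50 after the start, which the tables hold for 43 members. The E-box occurred in 10 of the 43 (23.3%), against 8.09% of all 27025 genes with a window. An ETS site, CCGGAAG, occurred in 17 (39.5%), against 9.93% of all genes. The core AANNGAAA occurred in 9 members (20.9%), among them Eif2s1, Eif3a and Eif3j1, against 26.7% of all genes, and also in the window of Eif2ak2. The cyclic AMP response element TGACGTCA occurred in 0 of the 43, against 2.03% of all genes. These shares are over all annotated genes with a window, expressed here or not, and matches of different motifs may share letters at their ends. A match is a description of letters and not a measured binding site.

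The cap-binding proteins of the eIF4E family had lower values in Oasl1-/- in all 3 members above the floor, none of them by 1.2-fold. Of all genes above the floor, 63.5% also had a lower value. Eif4e, the cap-binding protein of eIF4F, had 11.01 in WT and 10.82 in Oasl1-/- (difference -0.19), at a probe set on chromosome X that is not at the gene's own locus. Eif4e3 had 7.96 and 7.80, a difference of -0.17. Eif4e2, which encodes the cap-binding repressor 4EHP, had 8.94 and 8.82, a difference of -0.12. Eif4e1b, a form known from oocytes, did not exceed the floor on either array (6.27 and 6.49).

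Proteins that restrain eIF4E had small differences where they could be measured. Eif4ebp1, whose product 4E-BP1 blocks eIF4E until mTOR phosphorylates it, had 8.44 in WT and 8.35 in Oasl1-/- (difference -0.10). Eif4enif1, which carries eIF4E into the nucleus, had 8.59 and 8.54. The other 4E-BP genes were below the floor on both arrays, Eif4ebp2 with 7.56 and 7.44 and Eif4ebp3 with 6.55 and 6.02, so no fold is given for them.

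The scaffolds and helper proteins of the helicase differed little, none by 1.1-fold. Eif4g1, the main scaffold of eIF4F, had 10.35 in WT and 10.35 in Oasl1-/-. Its relatives Eif4g2 (DAP5, which works without eIF4E) and Eif4g3 differed by -0.02 and 0.01. Eif4b and Eif4h, which stimulate eIF4A, both had slightly higher values in Oasl1-/-. The difference was 0.06 for Eif4b (9.07 and 9.13) and 0.09 for Eif4h (10.87 and 10.96).

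**Figure D2:**
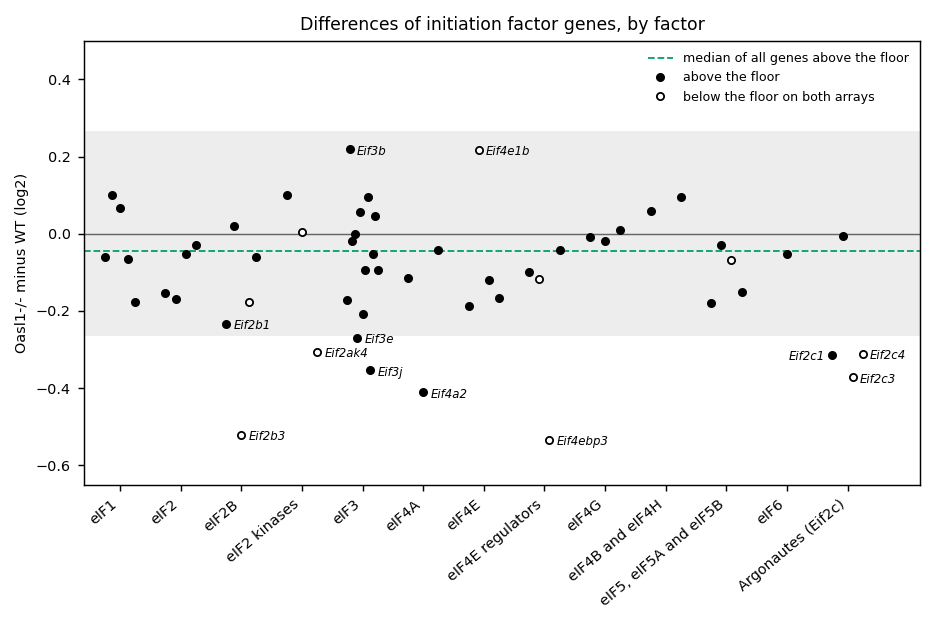
Difference between the genotypes (Oasl1-/- minus WT, log2, vertical axis) of each member by factor group. Filled points are above the floor, open points are below it on both arrays, the grey band is the range under 1.2-fold and the dashed line is the median of all genes above the floor (-0.04). Eif4a2, Eif3j, Eif2c1 and Eif3e are the filled points below the band, and no filled point lies above it.

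The 13 subunit genes of eIF3, the largest initiation factor and the one that recruits mRNA to the ribosomal subunit, differed in both directions. All 13 were above the floor, 9 with a lower and 4 with a higher value in Oasl1-/-, and their median was -0.05. At least 1.2-fold lower were 2 of them, Eif3j and Eif3e. The shares of all genes above the floor were 63.5% with a lower value and 8.89% at least 1.2-fold lower.

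Eif3j encodes a loosely attached subunit near the mRNA entry channel. Its probe set at chr2:121854419-121877831 had 8.80 in WT and 8.45 in Oasl1-/- (difference -0.35, 1.28-fold lower). A second probe set under the same symbol, on chromosome 18, where RefSeq places the copy Eif3j2, had 8.69 and 8.21, a difference of -0.48. Transcripts of near-identical copies can bind either probe set, which leaves the source of the Eif3j signal uncertain, while both probe sets had the lower value in Oasl1-/-.

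Eif3e (NM_008388, chr15:43081586-43114282), known also as Int6, had 9.77 in WT and 9.50 in Oasl1-/- (difference -0.27, 1.21-fold lower). That value rests on 10 probes and lay within the central 95% of genes of like level, from -0.31 to 0.24. Its difference was under 1.2-fold with quantile normalization (-0.23), with a loess trend removed (-0.23), with centring on the median gene (-0.23) and with 32 added to the linear signal (-0.26).

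Against these stood Eif3b, a core subunit, which had 10.33 in WT and 10.55 in Oasl1-/-. Its difference of 0.22 (1.16-fold higher) was the largest positive one among the members above the floor, and 95.7% of all genes had a lower difference. Also higher in Oasl1-/-, by less, were Eif3i (0.09), Eif3f (0.06) and Eif3l (0.05). Eif3a had a difference of -0.17 (10.27 and 10.10) and Eif3c one of -0.02 (10.78 and 10.76). Eif3g had a difference of -0.21 (8.42 and 8.21). The remaining eIF3 genes, Eif3d, Eif3h, Eif3k and Eif3m, lay between -0.10 for Eif3h and 0.00 for Eif3d.

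The factors that scan for the start codon were near even. Eif1, which enforces the choice of the start codon, had 12.20 in WT and 12.14 in Oasl1-/-. Its paralog Eif1b had the largest difference of the group, -0.18 (10.14 and 9.97). Eif1a had 8.46 and 8.57, a difference of 0.10, and the related Eif1ad had one of 0.07. The symbol Eif1ay of the array is Eif1ax on chromosome X by its RefSeq accession, and had 9.42 and 9.36.

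The genes of eIF2, which brings the initiator tRNA, all had slightly lower values in Oasl1-/-. A lower value was also found in 63.5% of all genes above the floor. Eif2s1, the alpha subunit that the stress kinases phosphorylate, had 10.93 in WT and 10.76 in Oasl1-/- (difference -0.17). Eif2s3x, the gamma subunit that holds GTP, had 10.31 and 10.28. Centred on the median gene, the difference of Eif2s3x was 0.02, while those of the other eIF2 genes stayed below 0. For Eif2s2, the beta subunit, the result depended on the probe set. The brighter one, on chromosome 8, had 9.39 and 9.34 (-0.05). The one on the gene's own chromosome 2 had 8.86 and 8.53 (-0.34, past 1.2-fold). Eif2a, a separate protein that can also carry initiator tRNA, had 9.84 and 9.68, a difference of -0.15.

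For eIF2B, which reloads eIF2 with GTP, 3 of the 5 subunit genes exceeded the floor, and their differences were all under 1.2-fold. Eif2b1, the alpha subunit, had 8.31 in WT and 8.07 in Oasl1-/- (difference -0.23). Eif2b2, the beta subunit, had 9.07 and 9.09, and the catalytic subunit Eif2b5 had 8.07 and 8.01. Eif2b3 (6.95 and 6.43) and Eif2b4 (6.80 and 6.62) were below the floor on both arrays.

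Among the eIF2 kinases, Eif2ak1 (HRI, which responds to lack of haem) was the only member above the floor, with 8.79 in WT and 8.89 in Oasl1-/- (difference 0.10). Below the floor on both arrays were Eif2ak3 (PERK, the kinase of endoplasmic reticulum stress), with 6.96 and 6.96, and Eif2ak4 (GCN2, the kinase of amino acid starvation), with 6.75 and 6.44. PKR, the kinase that double-stranded RNA activates and whose gene interferon induces, is not a member, but its gene Eif2ak2 had 10.56 and 10.62, a difference of 0.06.

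The factors of the last steps above the floor had values slightly lower in Oasl1-/- at the probe set that stands for each gene. Among all genes above the floor, 63.5% had a lower value. Eif5, which makes eIF2 hydrolyse its GTP at the start codon, had 9.71 in WT and 9.53 in Oasl1-/- (difference -0.18). Eif5b, which joins the ribosomal subunits, had 9.96 and 9.81 (-0.15). Eif5a, known also for its role in elongation, had 11.61 and 11.58 at its brighter probe set, on chromosome 5. The one on the gene's own chromosome 11 had 9.30 and 9.40. Eif5a2 did not exceed the floor on either array (6.89 and 6.82). Eif6, which keeps the large subunit apart until it is mature, had 10.35 and 10.30.

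The name rule also takes in 4 symbols that are no initiation factors. Eif2c1, Eif2c2, Eif2c3 and Eif2c4 are older names of the Argonaute genes Ago1 to Ago4, whose proteins bind microRNAs. Eif2c1 (chr4:126115565-126145665) had 8.20 in WT and 7.88 in Oasl1-/- (difference -0.31, 1.24-fold lower), within the range of genes of like level (-0.45 to 0.28). With quantile normalization or a loess trend removed its difference was -0.23, under 1.2-fold. Its neighbours on chromosome 4, Eif2c3 (7.66 and 7.29) and Eif2c4 (6.03 and 5.72), were below the floor in both hybridisations, so no fold is given. Eif2c2, on chromosome 15, had 7.99 and 7.98. Without these 4 symbols, 3 of 43 members above the floor were at least 1.2-fold lower, against 8.88% of genes. The median of the 43 stayed at -0.05. Conversely, Eif2d was named Lgtn on the array and fell outside the rule, with 7.32 and 7.54, below the floor.

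**Figure D3:**
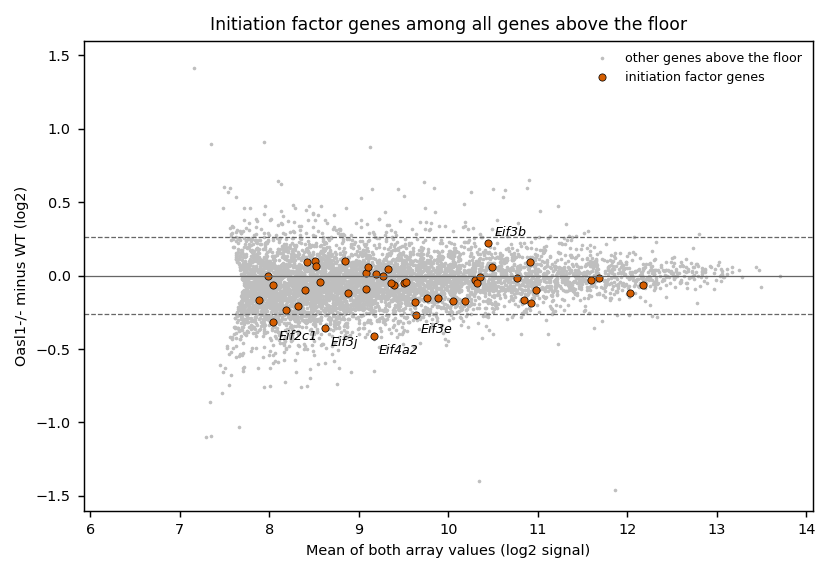
Difference (Oasl1-/- minus WT, log2) against the mean of both array values (log2) for all 6377 genes above the floor, in grey, with the 45 initiation factor genes as larger points and dashed lines at 1.2-fold. The 45 genes lie within the cloud, and 8 other genes fall outside the axis limits of 1.6 in either direction.

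Of the 55 members, 12 had more than 1 probe set. Probe sets on one array share their RNA and their labelling, and many of these were assigned the same RefSeq transcript. Their agreement is therefore no check of whether a genotype difference repeats. For Eif4a1, the 3 probe sets on chromosomes 1, 11 and 19 differed by -0.10, -0.10 and -0.12. The 3 of Eif1 lay between -0.06 and 0.00. The pair for Eif2c2 gave -0.02 and 0.00.

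For others the choice of probe set mattered. For 6 members, Eif2s2, Eif3m, Eif4a1, Eif4a3, Eif4e and Eif5a, the brightest probe set is not on the chromosome of the gene itself, and for genes above the floor as a whole that was so for 315 of the 6270 with a RefSeq match. On its own chromosome 11, Eif4a3 had 8.54 in WT and 8.34 in Oasl1-/- (-0.20), against -0.04 at the copy on chromosome 6. Both Eif4e probe sets on its own chromosome 3 were below the floor (6.59 and 6.53, 6.54 and 6.37), so its value above the floor rests on the chromosome X copy. With probe sets on the gene's own chromosome, 5 of 44 members were at least 1.2-fold lower, Eif2s2 joining the 4, against 9.10% of genes.

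**Figure D4:**
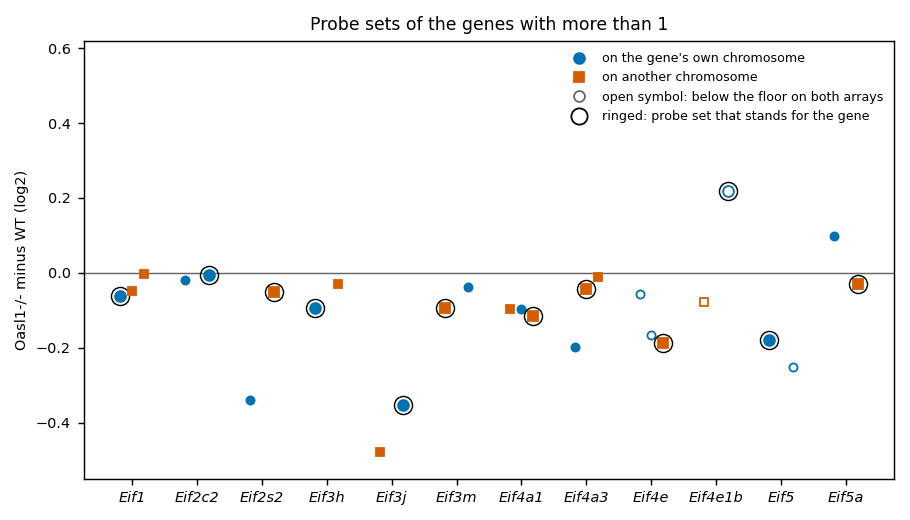
Difference (Oasl1-/- minus WT, log2) of every probe set of the 12 members that have more than 1. Circles lie on the gene's own chromosome and squares on another, open symbols are below the floor on both arrays, and a ring marks the probe set that stands for the gene. Probe sets of Eif4a1 and Eif1 nearly coincide, while those of Eif2s2 are far apart (-0.05 and -0.34).

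Genes that act on the initiation factors were followed as lists. For every list below, the shares of all genes above the floor are 8.89% at least 1.2-fold lower and 2.65% higher. Counts in lists this short were not tested against those shares. Of 18 accessory factors of initiation, 16 exceeded the floor, 1 was at least 1.2-fold lower and 1 higher, and the median was -0.10. Paip1, which links poly(A)-binding protein to eIF4A, had 9.83 in WT and 9.53 in Oasl1-/- (difference -0.30). Pabpc4, a poly(A)-binding protein, had 8.56 and 8.82, a difference of 0.27, at a probe set off its own chromosome.

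In the cycle of eIF2 phosphorylation, 11 of 13 genes exceeded the floor, 2 at least 1.2-fold lower and none higher, and the median was -0.05. Nck1, an adaptor known to interact with eIF2, had 9.36 in WT and 8.94 in Oasl1-/- (difference -0.42). Impact, which competes for the activator of GCN2, had 8.90 and 8.56, a difference of -0.35. Ppp1r15a (GADD34, the stress-induced partner of the eIF2 phosphatase, Myd116 on the array) had 8.40 and 8.61, and Atf4, whose translation depends on eIF2 phosphorylation, had 9.24 and 9.20.

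Of 16 genes of mTOR and MNK signalling to eIF4E, 13 exceeded the floor, and 1 was at least 1.2-fold lower and none higher (median -0.02). Rheb, the GTPase that activates mTOR, had 10.16 in WT and 9.86 in Oasl1-/- (difference -0.30). Mtor itself (Frap1 on the array) had 8.18 and 8.18. Of 11 elongation and termination genes, 8 exceeded the floor (median -0.09), and 1 was at least 1.2-fold lower, Eef1e1, a component of the tRNA synthetase complex, with 8.71 and 8.35.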

How the data were processed

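Log2 signals per probe set, from 1 array per genotype, were used as deposited by the authors, with 35556 probe sets. GCOS and RMA, which corrects background, normalizes arrays and summarises probes, are named per the submitters' processing notes without versions, and the sources used here do not say whether the 2 arrays were normalized jointly. RMA compresses differences of dim probe sets. The deposited log2 ratio equalled Oasl1-/- minus WT in all 35556 probe sets (within 1e-05), and the second deposited table differed by 0. The number of probes per set, another column deposited by the authors, was read as given.

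The floor was the 95th percentile of 5267 negative control probe sets on each array. Of the probe sets, 25305 carried 1 symbol. All 55 members matched RefSeq (GRCm38.p6 annotation) by accession, and list genes were also matched by their current symbol. Array coordinates are those of the deposited table, whose transcript descriptions name NCBIM37. Members and lists were chosen with earlier results of these data known. Calls use 1.2-fold because differences known from before were small. All members could be named, and of the other lists those past 1.2-fold or, failing that, the 2 with the largest difference. Ppp1r15a, Atf4 and Mtor were named for their role after values were seen. Alternatives covered the fold, the floor, normalization, the probe set and the log scale. The calling step was run on simulated data with set changes larger than any seen in the members, which checks the code and not the calls made here. Python 3.11.15, NumPy 2.4.6, pandas 2.3.3, statsmodels 0.14.6 and Matplotlib 3.10.9 were used.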

Additional observations from a re-analysis of the deposited data

How the results depend on the processing

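With 1 array per genotype, the error of a difference is not known. The spread over all genes above the floor (robust SD 0.14) served as the yardstick for moves between settings. It describes the spread between genes and is not the error of any single gene. By the fold, 14 members were lower and 1 higher at 1.1-fold, and 0 were lower at 1.5-fold and at 2-fold. With no floor, or with the array median as the floor, 9 of 55 members were at least 1.2-fold lower, against 8.16% and 10.5% of genes, and the median of the Argonaute genes was -0.31, because members too dim for a fold were then counted. With differences centred on the median gene, 1 member was higher and 3 lower, against 4.31% and 5.74% of genes. With a loess trend removed (span 0.3), or with quantile normalization, 2 were lower, Eif3j and Eif4a2, against 4.56% and 5.22% of genes, and the cause was not tested. Eif4a2 ranged from -0.41 to -0.36 and Eif3j from -0.42 to -0.28 over all settings. Of 448 differences of single genes under these alternatives, 445 moved by less than the yardstick and 3 by more. Those 3 were of Eif2s2 (-0.19 with the mean of its probe sets, -0.34 on its own chromosome) and of Eif4a3 (-0.20 on its own chromosome). Many of the 445 were fixed in advance, so their number is no measure of stability. The floor settings and the second deposited table leave a gene's difference as it is, and centring shifts every gene equally, by 0.04. Settings of the probe set cannot move the 43 of 55 members with 1 probe set. None of the called differences changed sign, whereas some small ones did. Eif5a went from -0.03 to 0.10 with probe sets on its own chromosome, and Eif2b5 from -0.06 to 0.02 with a loess trend removed. The medians of eIF2B, eIF4G and the eIF4E regulators also rose above 0 with a loess trend removed. Adding 32 to the linear signal left 3 lower, against 7.26% of genes. The alternative without the Eif2c symbols was chosen after seeing the data. No paired analysis was possible because each genotype has 1 array.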

Other observations

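Within 100 kb on either side of the Argonaute cluster of chromosome 4, where Eif2c1 was the Argonaute gene above the floor (difference -0.31), the neighbours above the floor had small differences, also below 0. Trappc3, a vesicle transport gene, had 10.67 in WT and 10.61 in Oasl1-/- (-0.06), and Mtap7d1 had 9.26 and 9.22 (-0.04). Clspn, next to Eif2c4, was below it with 6.58 and 6.52, and Col8a2 was below it with 5.76 and 6.15. The window was chosen after the values of the Argonaute genes were seen, and no test was possible.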
